A study of Mus musculus with 6 samples.

Results

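The genes described here are the mouse type 1 angiotensin receptor genes Agtr1a and Agtr1b and 7 genes for ion channels and a calcium pump whose human or mouse counterparts are tied to primary aldosteronism: the background potassium channels Kcnk3 and Kcnk9, the inward rectifier potassium channel Kcnj5, the calcium channels Cacna1h and Cacna1d, the chloride channel Clcn2 and the plasma membrane calcium pump Atp2b3. They were chosen by name, and all 9 were found among the 30406 genes listed for every library. Female C57BL/6J mice aged 10 to 11 months, either wild type (WT) or with Tmem127 knocked out (KO), gave whole adrenal glands whose nuclei were sorted on the DNA stain DAPI. Tmem127 encodes an endosomal and lysosomal membrane protein. Each of the 6 droplet-based 3' libraries holds nuclei of 1 pair of glands. The labels give 2 KO and 3 WT libraries. A sixth library is titled WT and has KO in its genotype field, and its values are given apart, as those of the unassigned library. What was deleted of Tmem127, in which cells and by what means is not stated in the labels.

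In the zona glomerulosa, the outermost zone of the adrenal cortex, angiotensin II and extracellular potassium drive aldosterone synthesis. The type 1 receptor couples to Gq and phospholipase C, and its activation closes potassium channels that hold the resting potential strongly negative. The depolarised cell admits calcium through voltage-gated channels, plasma membrane pumps remove it again, and calcium signalling raises Cyp11b2, which encodes aldosterone synthase. In people, gain-of-function variants of KCNJ5, CACNA1D, CACNA1H and CLCN2 and loss-of-function variants of ATP2B3 are known from aldosterone-producing adenomas or familial hyperaldosteronism, and in mice, deletion of the TASK channel genes Kcnk3 and Kcnk9 raises aldosterone. The neighbouring zona fasciculata makes corticosterone under ACTH, and the medulla holds the catecholamine-secreting chromaffin cells.

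The 6 libraries held 4825169 to 43377724 unique molecular identifiers (UMIs, 1 per captured RNA molecule) over 2886 to 4653 barcodes, with KO replicate 2 the shallowest and WT replicate 1 the deepest. After filtering, 21035 nuclei formed 22 clusters, in whose making the 9 genes took no part, and 66 distinct barcodes occurred in more than 1 library. The zona glomerulosa-like class was 1 cluster of 2967 nuclei, in which 7 of 9 marker genes passed the naming rule. It held 371 to 700 nuclei per library. The cortex was graded: beside this cluster lay 1 of 2838 nuclei that fitted no marker list, led by Cthrc1 and Oca2 and called the unnamed cortical cluster here, then a zona fasciculata-like cluster of 2773 nuclei and an inner cortex or X-zone-like one of 886, in which the X-zone gene Akr1c18 was near 0 (mean 0.564 CPM). Chromaffin-like nuclei were 2 clusters of 1065 and 380. Each level is a CPM value, a gene's UMIs divided by all UMIs of that class in a library and scaled to counts per 1000000. Means ± SD run over the 5 grouped libraries, and since a level is relative to all RNA of the class it says nothing of RNA per cell. Counts of 3' tags in nuclei depend on a gene's length and 3' end, so levels are compared between classes and not between genes. Class levels are descriptions without a test. Free RNA gives every droplet some UMIs of abundant genes, so levels in endothelium-like nuclei are given as a background. Tmem127 itself had 45.9 and 45.0 CPM in KO when all nuclei were summed, and 38.0, 38.2 and 36.1 in WT, which checks no label, because 3' tags can lie outside a deleted part. The unassigned library stood apart in the zona glomerulosa-like class, with Cyp11b2 at 107 CPM against 10.3 to 28.7 in the grouped libraries. The summed zona fasciculata markers in that class were also higher there, 6824 CPM against 2765 to 3077.

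From the zona glomerulosa-like to the zona fasciculata-like class Agtr1b was lower and Clcn2 higher in 5 of 5 libraries, and the 250 bases before the start site of each are shown for that reason, from RefSeq (GRCm38.p6, the assembly of the mm10 build). Both genes lie on the minus strand, and the sequences read 5′ to 3′ along it, from chr3:20367178-20367427 and chr16:20716637-20716886. The Clcn2 stretch lies inside the GENCODE M21 span of that gene, 20702964 to 20717746. It therefore precedes a RefSeq start site and not the outermost GENCODE one. Capitals mark TATAAA, searched on both strands.
Agtr1b: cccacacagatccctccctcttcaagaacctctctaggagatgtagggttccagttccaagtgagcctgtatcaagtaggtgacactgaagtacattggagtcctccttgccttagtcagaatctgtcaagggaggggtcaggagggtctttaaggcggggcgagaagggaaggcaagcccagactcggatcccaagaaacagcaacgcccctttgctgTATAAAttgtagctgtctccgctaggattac
Clcn2: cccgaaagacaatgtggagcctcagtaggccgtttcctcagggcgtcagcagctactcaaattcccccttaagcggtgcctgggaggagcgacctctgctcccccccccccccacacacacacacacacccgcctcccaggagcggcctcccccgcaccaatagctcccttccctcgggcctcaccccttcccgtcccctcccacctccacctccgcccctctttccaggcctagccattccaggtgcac
TATAAA occurred 1 time before Agtr1b, starting 31 bases before the start site, and did not occur before Clcn2. Cacna1d and Kcnj5, not shown, were also lower in zona fasciculata-like nuclei in 5 of 5 libraries. Of the 2 Cacna1d promoters, 1 held TATAAA 3 times, at 207, 205 and 150 bases before the start site. The other and that of Kcnj5 did not hold it. TATAAA occurred in 12.4% of 32851 promoters of that length in the table. AGGTCA, a half-site of nuclear receptors, occurred in 14.0% of them and in none of the 5 promoters listed for 4 of the 9 genes (Agtr1b, Kcnj5, Clcn2, and Cacna1d with 2).

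Agtr1a (chromosome 13, 30336441 to 30382867, plus strand, GENCODE M21 on mm10) encodes the main AT1 receptor of most mouse tissues. Zona glomerulosa-like nuclei had 1287 and 1047 CPM in KO against 871, 1196 and 1329 in WT. Its level stepped down through the cortex, from 1146 ± 188 to 620 ± 79.4 in the unnamed cortical cluster, 415 ± 146 in zona fasciculata-like and 144 ± 38.8 CPM in inner cortex or X-zone-like nuclei. The glomerulosa-like level lay above the next in each of the 5 libraries, without overlap of the ranges. Chromaffin-like nuclei had 161 ± 38.6 CPM, and pericyte or smooth muscle-like nuclei had 332 ± 70.0, a range that overlapped that of the zona fasciculata-like class. The background in endothelium-like nuclei was 32.2 ± 9.89 CPM. A predicted gene, Gm48161, overlaps Agtr1a on the same strand, so their reads could have been exchanged in counting. The unassigned library differed: its Agtr1a was 799 CPM in zona glomerulosa-like and 853 in zona fasciculata-like nuclei, a log2 ratio of -0.10, where the grouped libraries had 1.00 to 2.12.

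Agtr1b (chromosome 3, 20314473 to 20367177, minus strand) encodes the second AT1 receptor of rodents. Of the 8 genes with counts in both zones it had the steepest fall from the zona glomerulosa-like to the zona fasciculata-like class. Its level in zona glomerulosa-like nuclei was 825 and 1020 CPM in KO against 1039, 909 and 806 in WT, while the unassigned library had 1440. The mean fell from 920 ± 108 to 64.6 ± 17.5 CPM in the unnamed cortical cluster and to 4.61 ± 1.70 in zona fasciculata-like nuclei, which is no higher than the 6.63 ± 3.33 CPM of endothelium-like nuclei. The log2 ratio of zona glomerulosa-like over zona fasciculata-like nuclei, with 1 CPM added to both, was 7.40 ± 0.35 for Agtr1b and 1.51 ± 0.41 for Agtr1a (SD, n = 5). With each nucleus thinned to 1000 UMIs, 43.7% ± 3.45 of zona glomerulosa-like nuclei held an Agtr1b UMI, against 0.565% ± 0.364 of zona fasciculata-like and 0.438% ± 0.402 of endothelium-like nuclei. Unthinned, these shares were 71.9%, 2.99% and 1.35%. Thinning left out 61 zona glomerulosa-like nuclei of KO replicate 2 and 4 of WT replicate 2, and 52 and 3 zona fasciculata-like ones. It also left out 19 to 397 endothelium-like nuclei per grouped library.

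**Figure D1:**
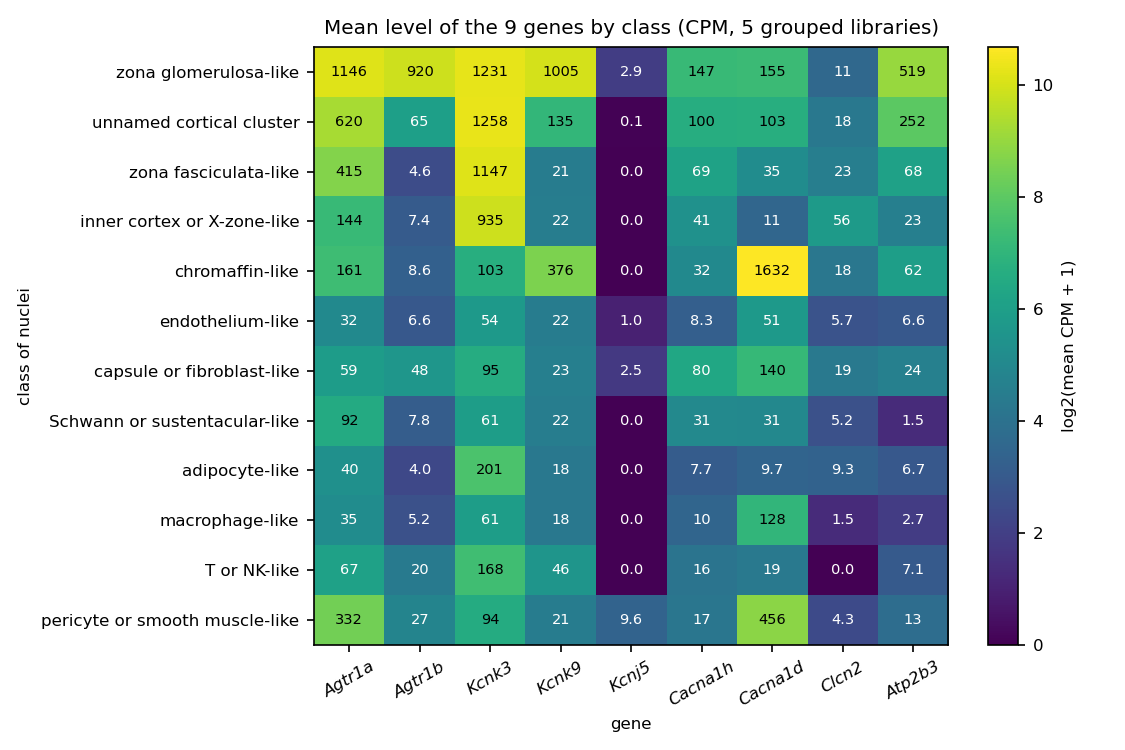
Mean level of each of the 9 genes (columns) in 12 classes of nuclei (rows), in CPM averaged over the 5 grouped libraries. The number in a cell is the mean and its colour is log2(mean CPM + 1). Agtr1b falls from 920 CPM in zona glomerulosa-like to 4.61 in zona fasciculata-like nuclei, while Kcnk3 stays between 935.1 and 1258 CPM across the 4 cortical classes.

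A second place held Agtr1b. A capsule or fibroblast-like cluster of 832 nuclei led by genes that include Rspo3, an R-spondin that the adrenal capsule is known to secrete, had Agtr1b at 192 and 128 CPM in KO against 92.4, 185 and 118 in WT, all above the endothelium-like range of 2.47 to 11.3. Agtr1b made up 65.6% ± 10.2 of the Agtr1a and Agtr1b UMIs of that cluster. The share was 44.7% ± 7.03 in zona glomerulosa-like nuclei, 9.49% ± 2.43 in the unnamed cortical cluster, 1.25% ± 0.649 in zona fasciculata-like and 8.17% ± 4.64 in pericyte or smooth muscle-like nuclei. In the same Rspo3 cluster, Kcnk9 at 18.0 ± 7.47 and Atp2b3 at 3.90 ± 3.52 CPM, both abundant in zona glomerulosa-like nuclei, lay at or under their endothelium-like levels of 21.6 ± 5.39 and 6.59 ± 2.37.

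**Figure D2:**
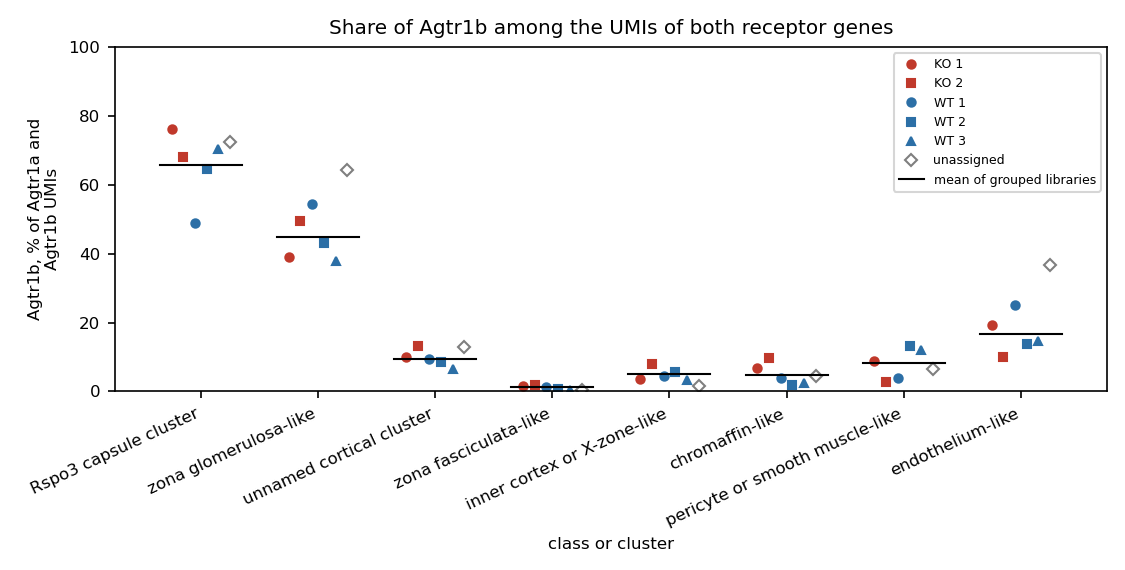
Share of Agtr1b among the UMIs of Agtr1a and Agtr1b (vertical axis, percent) in the Rspo3 capsule cluster and 7 classes. Points are libraries, coloured red for KO, blue for WT and open grey for the unassigned library, and bars are means of the 5 grouped libraries. The zona glomerulosa-like points lie between 37.7% and 64.3%, and those of the zona fasciculata-like class do not exceed 2%.

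Kcnk3 (TASK-1; chromosome 5, 30588170 to 30625271, plus strand) and Kcnk9 (TASK-3; chromosome 15, 72501089 to 72546340, minus strand) encode acid-sensitive background potassium channels that can form mixed dimers. Kcnk3 was high in all cortical classes. Its level in zona glomerulosa-like nuclei was 1193 and 1311 CPM in KO against 1160, 1296 and 1196 in WT. The 4 cortical means were 1231 ± 67.8, 1258 ± 108 in the unnamed cortical cluster, 1147 ± 103 in zona fasciculata-like and 935.1 ± 116 CPM in inner cortex or X-zone-like nuclei, and the ranges of neighbours in this order overlapped. The log2 ratio of zona glomerulosa-like over zona fasciculata-like nuclei was 0.11 ± 0.14. Chromaffin-like nuclei had 103 ± 29.0 CPM and endothelium-like nuclei 53.9 ± 26.7. A predicted gene, Gm9899, overlaps Kcnk3 on the other strand.

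Kcnk9 marked the zona glomerulosa and, at a lower level, the medulla. Zona glomerulosa-like nuclei had 894 and 1111 CPM in KO against 747, 1042 and 1230 in WT, while the unassigned library had 1253. Chromaffin-like nuclei had 376 ± 89.3 CPM, the unnamed cortical cluster 135 ± 49.6, and zona fasciculata-like nuclei 21.3 ± 7.16, the same as the endothelium-like background of 21.6 ± 5.39 within the spread. No ranges overlapped down to the unnamed cortical cluster. After thinning, 57.6% ± 5.65 of zona glomerulosa-like, 28.6% ± 7.41 of chromaffin-like and 2.10% ± 1.00 of zona fasciculata-like nuclei held a Kcnk9 UMI, against 2.26% ± 0.967 of endothelium-like nuclei. Unthinned, the shares were 88.3%, 73.9%, 11.5% and 4.16%. Both chromaffin-like clusters held it, at 351 ± 116 CPM in the larger, led by Olfm3 and Slc6a4, and 447 ± 45.9 in the smaller, led by Lix1 and Dach2.

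Kcnj5 (GIRK4; chromosome 9, 32314707 to 32344350, minus strand), the gene mutated most often in human aldosterone-producing adenomas, was close to absent from these counts. Zona glomerulosa-like nuclei held 56 Kcnj5 UMIs in the 5 grouped libraries, at 3.39 and 1.27 CPM in KO against 3.49, 3.89 and 2.25 in WT. Zona fasciculata-like nuclei held 0 of 18575568 UMIs, which allows up to 0.162 CPM (3 counts), chromaffin-like nuclei held 0 of 10516766 (up to 0.285 CPM), and inner cortex or X-zone-like nuclei held 0 of 4241111 (up to 0.707 CPM). With 3 counts over the group as the floor, the pooled zona glomerulosa-like level of 3.18 CPM was at least 19.7-fold higher than the zona fasciculata-like one. These limits cover counting error only. Pericyte or smooth muscle-like nuclei had 9.63 ± 7.08 CPM, from 2 and 0 UMIs in KO and 12, 1 and 5 in WT. At such counts the range overlapped the glomerulosa-like one, and thinned shares were 0.271% ± 0.173 in zona glomerulosa-like and 0.186% ± 0.291 in endothelium-like nuclei (unthinned 1.75% and 0.180%).

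Cacna1h (chromosome 17, 25374285 to 25433783, minus strand) encodes the T-type channel Cav3.2, which opens at small depolarisations. Its zona glomerulosa-like level was 242 and 116 CPM in KO against 131, 147 and 99.2 in WT, so that KO replicate 1 stood above the others and KO replicate 2 within the WT range. Cacna1h declined gradually, from 147 ± 56.2 to 100 ± 24.6 in the unnamed cortical cluster, 69.0 ± 30.3 in zona fasciculata-like and 41.0 ± 20.1 CPM in inner cortex or X-zone-like nuclei. Ranges of neighbouring classes overlapped, although zona glomerulosa-like nuclei were above zona fasciculata-like ones in 5 of 5 libraries (log2 ratio 1.14 ± 0.41). A stromal cluster led by Prdm6 and Gata4 had 110 ± 46.6 CPM, and endothelium-like nuclei had 8.33 ± 4.53. Tpsg1 overlaps Cacna1h on the other strand.

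Cacna1d (chromosome 14, 30039939 to 30491455, minus strand) encodes the L-type channel Cav1.3 and was foremost a gene of the medulla. Chromaffin-like nuclei had 1700 and 1440 CPM in KO against 1778, 1488 and 1752 in WT, and 77.5% ± 2.42 of them held a UMI after thinning (94.5% unthinned). In zona glomerulosa-like nuclei the level was 154 and 125 CPM in KO against 217, 168 and 111 in WT, with a thinned share of 13.3% ± 3.81 (41.6% unthinned) against 3.02% ± 1.03 of endothelium-like nuclei (4.58% unthinned). For Cacna1d the endothelium-like class is no background, since 1 of its clusters held the transcript, and the largest endothelial cluster had a thinned share of 1.18% ± 0.815 (2.60% unthinned). The log2 ratio of zona glomerulosa-like over chromaffin-like nuclei was -3.42 ± 0.37. Within the cortex, the mean fell from 155 ± 41.6 to 103 ± 20.8 in the unnamed cortical cluster, 35.1 ± 8.54 in zona fasciculata-like and 10.5 ± 5.07 CPM in inner cortex or X-zone-like nuclei. Outside cortex and medulla, pericyte or smooth muscle-like nuclei had 456 ± 98.6 CPM, above the glomerulosa-like level in each of the 5 libraries. One endothelial cluster of 342 nuclei, number 19, had 501 ± 155 CPM, while the largest endothelial cluster had 12.1 ± 3.32. Macrophage-like nuclei had 128 ± 25.02 CPM. Several genes lie inside Cacna1d, 1 of them, the predicted gene Gm18072, on its strand.

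Clcn2 (ClC-2; chromosome 16, 20702964 to 20717746, minus strand), a chloride channel that opens on hyperpolarisation, ran against most of the others: within the cortex it was lowest in the outer and highest in the inner cortex. Inner cortex or X-zone-like nuclei had 86.1 and 29.9 CPM in KO against 97.8, 34.2 and 30.7 in WT. The high pair are KO replicate 1 and WT replicate 1, whose counts came from another Cell Ranger version and gene annotation than those of the other libraries; the part of this in the levels was not tested. Fam131a and Polr2h overlap Clcn2 on the other strand. Within every library the inner level was the highest of the cortical classes, with means of 55.7 ± 33.4, 23.0 ± 10.1 in zona fasciculata-like, 18.5 ± 5.13 in the unnamed cortical cluster and 11.1 ± 4.77 CPM in zona glomerulosa-like nuclei. The log2 ratio of zona glomerulosa-like over zona fasciculata-like nuclei was -0.99 ± 0.42, below 0 in 5 of 5 libraries. Endothelium-like nuclei had 5.71 ± 1.43 CPM. Thinned shares were 1.09% ± 0.752 in zona glomerulosa-like and 0.420% ± 0.432 in endothelium-like nuclei (7.27% and 1.23% unthinned), so that glomerulosa-like nuclei stood little above the background.

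Atp2b3 (PMCA3; chromosome X, 73503086 to 73571005, plus strand) encodes a plasma membrane calcium pump. Its level in zona glomerulosa-like nuclei was 590 and 437 CPM in KO against 608, 446 and 514 in WT. It then fell with each step, to 252 ± 43.2 in the unnamed cortical cluster and 67.8 ± 21.9 in zona fasciculata-like nuclei from 519 ± 79.1, with no overlap between these 3, and to 23.1 ± 18.0 CPM in inner cortex or X-zone-like nuclei. Chromaffin-like nuclei had 62.4 ± 13.03 CPM and endothelium-like nuclei 6.59 ± 2.37. The smaller chromaffin-like cluster, led by Lix1 and Dach2, had 127 and 64.2 CPM in KO against 131, 126 and 116 in WT, and the larger 47.4 and 61.3 in KO and 53.4, 35.9 and 30.3 in WT, so the smaller was higher in each library.

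**Figure D3:**
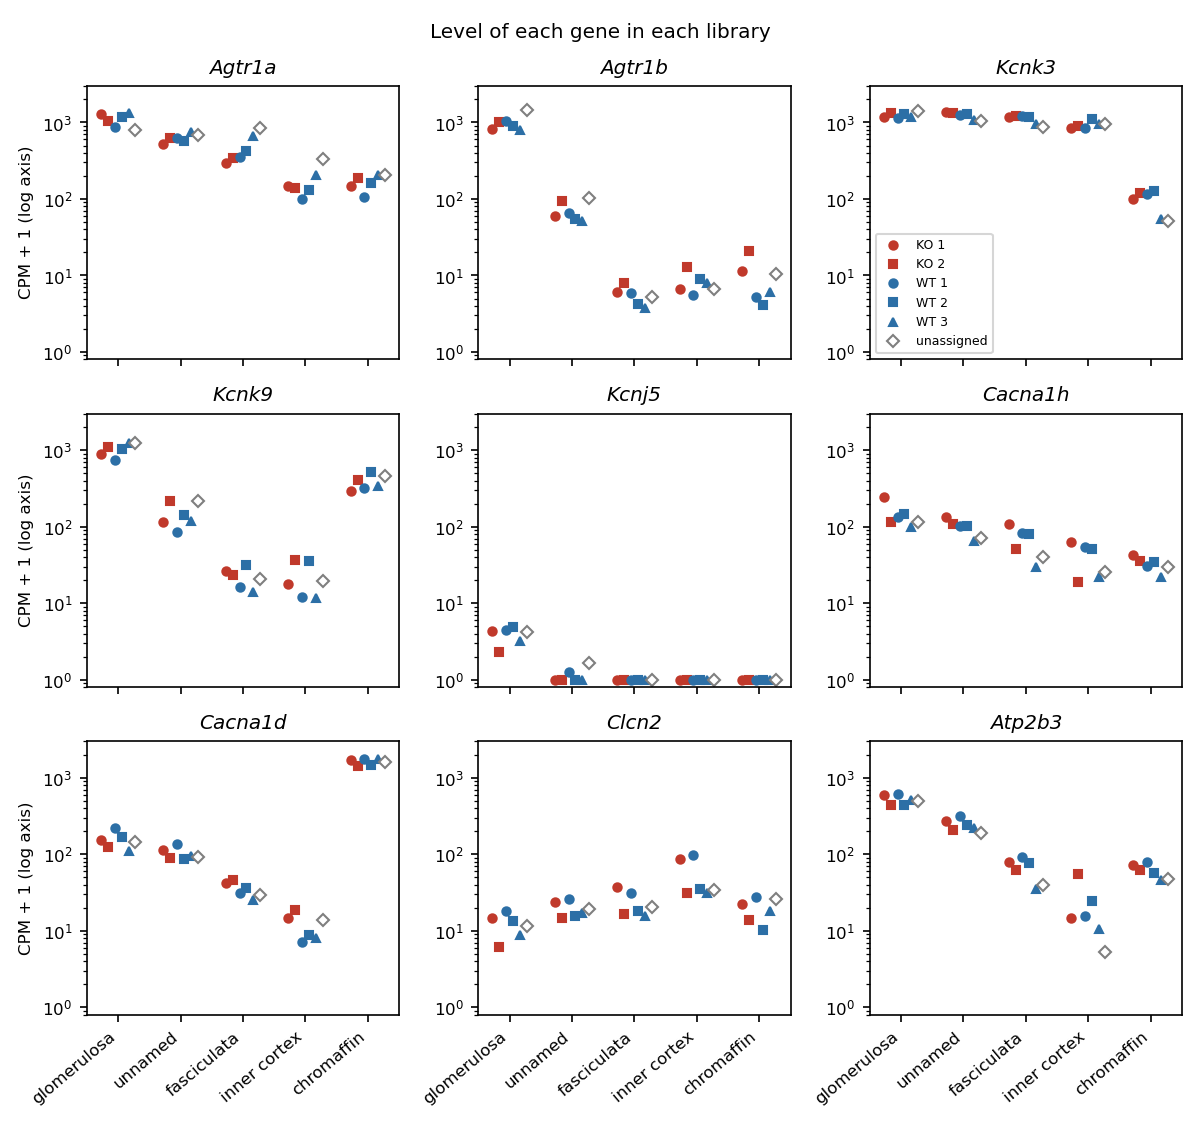
Level of each gene in each of the 6 libraries in 4 cortical classes and chromaffin-like nuclei, as CPM + 1 on a log axis. Circles, squares and triangles are replicates 1, 2 and 3, red for KO and blue for WT, and open diamonds are the unassigned library. The unassigned Agtr1a value is 853 CPM in zona fasciculata-like nuclei, above the 295 to 662 of the grouped libraries, and KO and WT points are interleaved in most columns.

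In the classes given a name and measured in all grouped libraries, 5 of the 9 genes (Agtr1a, Agtr1b, Kcnk9, Cacna1h and Atp2b3) were highest in zona glomerulosa-like nuclei in every grouped library. The same 5 came out with coarser and finer clusters, with doublets kept, with only nuclei of at least 1000 genes and with the 9 genes allowed among the variable genes. Without WT replicate 1 the count was 6, with Kcnk3 added. The share of all genes highest in this class was not computed, so the count describes these 9 genes only.

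Within the zona glomerulosa-like class, nuclei were split by the presence of a Cyp11b2 UMI, as a description. This transcript was sparse: 10 to 108 nuclei per grouped library held one, and after thinning 1.62% ± 0.512 of zona glomerulosa-like nuclei did, against 0.0174% ± 0.0388 of endothelium-like nuclei (7.63% and 0.0171% unthinned). Nuclei with a Cyp11b2 UMI were deeper in every library, for example with a median of 13469.5 against 10805 UMIs in WT replicate 1. Agtr1b was higher in nuclei with a Cyp11b2 UMI in 5 of 5 libraries, at 1442 ± 347 against 848 ± 112 CPM. In the KO libraries it rose from 718 to 1749 and from 1014 to 1188 CPM, and in WT from 849 to 1887, from 882 to 1212 and from 779 to 1175. Cacna1d was also higher in 5 of 5 libraries, at 258 ± 103 against 141 ± 28.2 CPM, and so was Agtr1a, at 1341 ± 263 against 1125 ± 190. Kcnk9 was higher in 4 of 5 libraries (1102 ± 248 against 993 ± 192 CPM) and Atp2b3 in 4 of 5 (546 ± 70.4 against 517 ± 79.8). Kcnk3 was higher in 3 of 5 libraries (1236 ± 85.8 against 1227 ± 79.5 CPM) and Cacna1h in 3 of 5 (150 ± 67.9 against 147 ± 55.2).

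**Figure D4:**
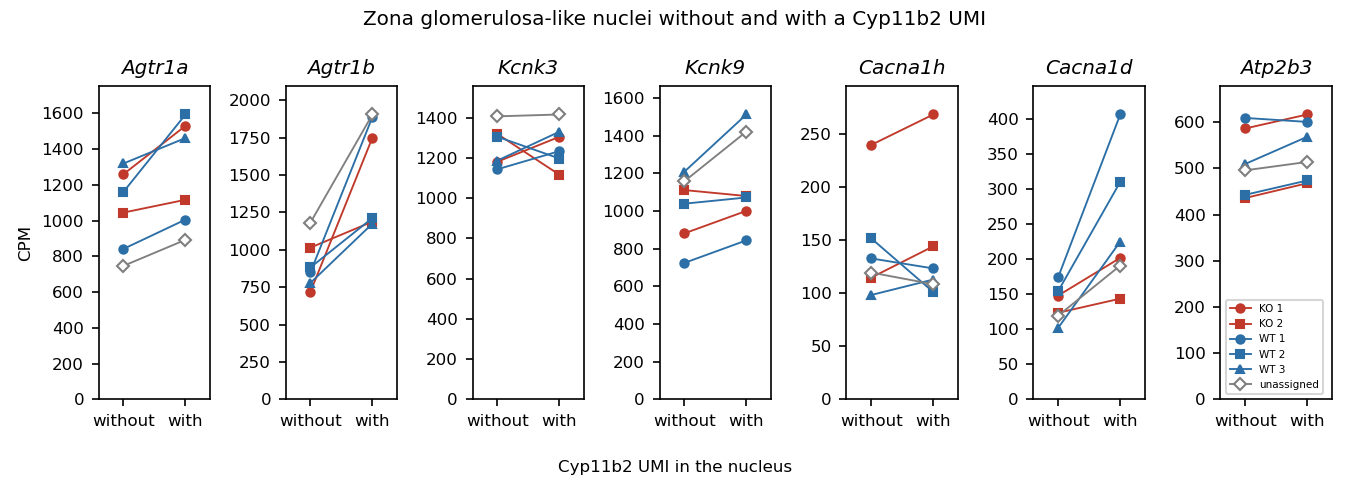
Level of 7 of the genes in zona glomerulosa-like nuclei without and with a Cyp11b2 UMI, in CPM on axes that start at 0. Each line joins the 2 values of 1 library, red for KO, blue for WT and grey for the unassigned library. The lines for Agtr1a, Agtr1b and Cacna1d rise in all 6 libraries, and those for Kcnk3, Kcnk9, Cacna1h and Atp2b3 go both ways.

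With finer clusters the zona glomerulosa-like class came apart into a cluster of 1332 nuclei led by Vsnl1 and Cyp11b2 and one of 1669 led by Mybpc1 and Grpr. Agtr1b was 1303 ± 144 CPM in the first and 543 ± 137 in the second, and the ranges of 1170 to 1513 and 412 to 752 did not overlap. Agtr1a was 1342 ± 257 and 945 ± 155 CPM, Kcnk9 1154 ± 240 and 840 ± 138, Atp2b3 573 ± 88.8 and 467 ± 74.8, and Cacna1d 175 ± 52.4 and 133 ± 31.7. The ranges of these 4 overlapped. Kcnk3 was 1239 ± 72.7 and 1229 ± 95.6 CPM.

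The genes whose levels ran most like those of a member over 12 classes in 6 libraries, 72 values that share libraries and depth, were found by Pearson's r of log2(CPM + 1), for members and genes with at least 500 UMIs, which left out Kcnj5. For Agtr1a they were Cacna2d1 (r = 0.90), an auxiliary calcium channel subunit, Auts2 (0.83) and Tbx3os1 (0.80). For Agtr1b they were Tspan11 (0.86), Caln1 (0.82) and Kcnd2 (0.82), for Kcnk3 Nckap5 (0.90), Prlr (0.88) and Rmdn2 (0.87), and for Kcnk9 Far2 (0.82), Kcnq3 (0.82) and Meg3 (0.80). Kcnma1, the BK potassium channel, was among the 3 closest for both Cacna1h (0.81, with Cttnbp2 at 0.82 and Wwc1 at 0.81) and Atp2b3 (0.84, with Gm13052 at 0.86 and Steap2 at 0.85). Cacna1d went with Tle1 (0.79), Asic2 (0.76) and Grm7 (0.75), and Clcn2 with Plpp7 (0.77), Echdc3 (0.76) and C1rl (0.75).

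KO was then compared with WT in each class on summed counts, with edgeR's quasi-likelihood test, a term for the annotation batch, and adjusted p-values (Benjamini-Hochberg, over all genes tested) held against 0.05. The values that the fold rests on are the levels per library given above. In zona glomerulosa-like nuclei all 9 genes were tested and 0 passed, where 0.646% of all genes did (73 of 11305, 31 higher and 42 lower in KO). At an unadjusted p under 0.05 there was 1 of the 9, against 12.2% of all genes, and DESeq2 called 0 of the 9. It gave Kcnj5 no adjusted p there and so could not call it. In zona fasciculata-like, chromaffin-like and unnamed cortical nuclei 8 genes were tested, without Kcnj5, and 0 passed, as did 0% of all genes in each. At an unadjusted p under 0.05 there were 0, 1 and 1 of the 8, against 2.06%, 5.25% and 4.66% of all genes. DESeq2 called 0 of the 8 in each class, and 3, 11 and 3 of all genes. It gave Agtr1b no adjusted p in chromaffin-like nuclei and so could not call it there. Of the other classes, 0 of 8 passed in endothelium-like (0.00949% of all genes), 0 of 8 in capsule or fibroblast-like (0.0289%), 0 of 3 in adipocyte-like (0.253%), 0 of 4 in macrophage-like (0.07%) and 0 of 1 in T or NK-like nuclei (0.036%). In inner cortex or X-zone-like nuclei 0 of 7 passed, in Schwann or sustentacular-like 0 of 2 and in pericyte or smooth muscle-like 0 of 3, where 0% of all genes did. Members at an unadjusted p under 0.05 numbered 0 in each of these 8 classes, and 0 by DESeq2. In capsule or fibroblast-like nuclei DESeq2 gave no adjusted p to any member, so it could not call them. The same held for Kcnk9 in adipocyte-like nuclei. With all nuclei summed 0 of 9 passed, also 0% of all genes, with 0 at an unadjusted p under 0.05 and 0 by DESeq2. Because a sum over whole glands follows both the number of cells of a type and their RNA, these cannot be told apart there. Of 48 nuclei in a hepatocyte-like cluster, 46 came from KO replicate 1. With all nuclei summed, hepatocyte markers had 131 and 13.7 CPM in KO against 0.325, 16.3 and 3.71 in WT. In zona fasciculata-like nuclei they had 35.8 and 12.7 CPM in KO against 0.240, 13.8 and 3.03 in WT. The part of this in the folds was not tested. The replicates are separate pairs of glands, 2 KO and 3 WT.

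In zona glomerulosa-like nuclei the log2 folds of KO over WT were near 0 for the receptors and TASK channels: 0.09 ± 0.16 (SE) for Agtr1a, -0.01 ± 0.14 for Agtr1b, 0.05 ± 0.12 for Kcnk3 and 0.09 ± 0.13 for Kcnk9. Adjusted p was 0.862, 0.979, 0.904 and 0.839. Within the batch of the first replicates Agtr1a gave 0.56 and Agtr1b -0.33, and within the other batch -0.27 and 0.25, so their directions turned between batches. Cacna1h had the largest positive fold, 0.44 ± 0.20 (adjusted p = 0.39), which was 0.88 within the first batch and -0.09 within the second. Cacna1d had -0.34 ± 0.17 (adjusted p = 0.435), with -0.49 and -0.16 within the batches. Without WT replicate 2 Cacna1h passed (0.61, adjusted p = 0.0178), and without WT replicate 3 Cacna1d passed (-0.48, adjusted p = 0.0333). Without KO replicate 1 or WT replicate 1 the fold of Cacna1h was -0.08 or -0.07. Both of these fits rest on the second batch alone and repeat its -0.09. Atp2b3 had -0.10 ± 0.12, Clcn2 -0.48 ± 0.35 and Kcnj5 -0.29 ± 0.64. KO and WT ranges overlapped for all 9, and the share of all genes without overlap is not given here. The transcript Gm42418, which overlaps a ribosomal RNA repeat, moved with genotype in this class and with all nuclei summed. Its level in this class was 14835 and 11353 CPM in KO against 5483, 6765 and 3529 in WT. With all nuclei summed it was 15261 and 12513 CPM in KO against 6742, 7743 and 3819 in WT. Other summed levels of the zona glomerulosa-like class also moved with genotype. Of 19 marker lists, 8 had a higher summed level in KO without overlap and 1 a lower. The 9 zona glomerulosa markers, of which Nov was at 0, summed to 5547 and 5853 CPM in KO against 6578, 6535 and 7585 in WT. The 13 chromaffin markers summed to 164 and 175 against 96.6, 138 and 67.7, the 6 adipocyte markers to 35.4 and 33.0 against 11.9, 21.4 and 15.1, and the 8 T or NK markers, of which Klrb1c was at 0, to 478 and 483 against 396, 365 and 379. Capsule or fibroblast, endothelium, cortex, macrophage and skeletal muscle markers were the other higher lists. Some rest on few UMIs: the skeletal muscle list had 22 and 4 in KO against 26, 5 and 4 in WT. The macrophage list had 33 and 6 UMIs in KO against 46, 11 and 20 in WT. In chromaffin-like nuclei 5 lists were higher and 1 lower without overlap, in zona fasciculata-like 3 and 3, and in unnamed cortical nuclei 2 and 0. The part of all these levels in the folds was not tested.

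Elsewhere, 2 values had an unadjusted p under 0.05 (edgeR), 1 of the 8 genes tested in each class. Of all genes, 4.66% did so in unnamed cortical and 5.25% in chromaffin-like nuclei. Kcnk9 in the unnamed cortical cluster was 115 and 216 CPM in KO against 84.6, 141 and 118 in WT, so the groups overlapped. Its log2 fold was 0.59 ± 0.17 (adjusted p = 0.931, edgeR), and 0.43 and 0.73 within the batches. Agtr1b in chromaffin-like nuclei was 10.4 and 20.2 CPM in KO against 4.30, 3.104 and 5.15 in WT, without overlap, with a fold of 1.68 ± 0.47 (adjusted p = 0.854, edgeR). Those levels are near the endothelium-like range of 2.47 to 11.3, the 9 zona glomerulosa markers summed to 200 and 199 CPM in the same KO nuclei and to 124, 145 and 133 in WT, and with doublets kept the fold was -0.13. The part of this in the fold was not tested further.

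**Figure D5:**
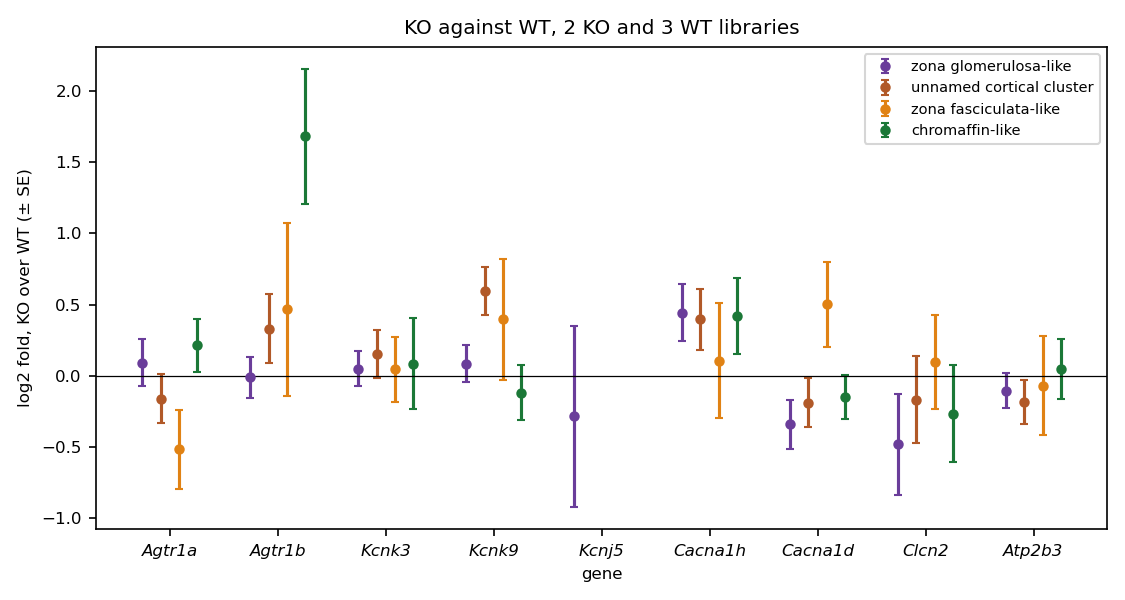
Log2 fold of KO over WT for each gene in 4 classes, from edgeR with the batch as a term, with bars of 1 standard error, for 2 KO and 3 WT libraries. Kcnj5 was tested in zona glomerulosa-like nuclei only. The zona glomerulosa-like folds of Agtr1a, Agtr1b, Kcnk3 and Kcnk9 lie between -0.01 and 0.09, and the largest fold shown is 1.68, for Agtr1b in chromaffin-like nuclei.

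The difference between the KO effect in zona glomerulosa-like and that in zona fasciculata-like nuclei was tested in 1 model with the library as a block. By edgeR 0 of 12397 genes passed (0%), with 332 at an unadjusted p under 0.05, and Kcnj5 could not be fitted, having no counts in zona fasciculata-like nuclei. Cacna1d had the largest difference of the other 8, -0.87 ± 0.27 (adjusted p = 1), with folds of -0.34 and 0.50 in the respective classes. Its zona fasciculata-like levels were 41.3 and 45.3 CPM in KO against 30.01, 34.9 and 23.9 in WT, without overlap. The difference passed without WT replicate 3 (-0.90, adjusted p = 0.0101). Agtr1a had a difference of 0.54 ± 0.25 (adjusted p = 1). Its zona fasciculata-like levels of 295 and 346 CPM in KO lay below the 348, 422 and 662 of WT, by a narrow gap. Agtr1b was also without overlap there, at 5.02 and 7.07 CPM in KO against 4.92, 3.29 and 2.75 in WT. For Kcnk3, Kcnk9, Cacna1h, Clcn2 and Atp2b3 the groups overlapped. The share of all genes without overlap is not given here, so these separations do not set the members apart from other genes.

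The wider pathway was described with 7 lists in zona glomerulosa-like nuclei, where the median log2 fold of all genes was 0.03. Of 13 genes of aldosterone synthesis, all tested, 2 fell in KO and 0 rose (list median 0.20). Hsd3b6, the 3-beta-hydroxysteroid dehydrogenase of the mouse zona glomerulosa, gave 29.7 and 20.3 CPM in KO and, without overlap, 67.2, 53.8 and 57.8 in WT. It fell by 1.28 ± 0.20 on the log2 scale (adjusted p = 0.00398, edgeR). With the batch as a term, leaving out KO replicate 1, KO replicate 2 or WT replicate 1 leaves the fold to 1 KO library. Such fits cannot decide whether a call holds. Scarb1, the HDL receptor that delivers cholesterol, gave 329 and 165 CPM in KO and, overlapping, 464, 258 and 270 in WT. With the batch as a term it fell by 0.60 ± 0.12 (adjusted p = 0.0379, edgeR, and 0.0554 by DESeq2). The same limit holds for its fits without those libraries. The 3 most abundant, Cyp21a1 (1271 CPM on average), Hsd3b1 (521) and Cyp11a1 (421), had folds of 0.20, 0.22 and 0.30 that did not pass.

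Of 36 genes of Gq and calcium signalling, 33 were tested, of which 1 rose and 0 fell (list median -0.0024). This was Camk1d, a calcium and calmodulin-dependent kinase, with 458 and 531 CPM in KO against 266, 264 and 210 in WT. Its fold was 0.98 ± 0.14 (adjusted p = 0.00173, edgeR). Without KO replicate 2 it was 0.76, a fit that leaves 1 KO library and cannot decide whether the call holds. Plcb1, a phospholipase C that Gq activates, had -0.09 ± 0.14, Camk2d -0.21 ± 0.12 and the IP3 receptor gene Itpr1 -0.01 ± 0.12. Gm42418 and the 9 marker sums given above separated KO from WT in the same nuclei, Hsd3b6 is itself 1 of the 9 zona glomerulosa markers, and their part in these calls was not tested. With no batch term or with the unassigned library in either group these 3 calls were lost.

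In the other 5 lists 0 genes passed in zona glomerulosa-like nuclei by edgeR or DESeq2, and 8 of 41 tested had an unadjusted p under 0.05, against 12.2% of all genes. Of the 12 genes of the renin-angiotensin system 4 were tested (median 0.31), with Lnpep, which encodes the aminopeptidase that binds angiotensin IV, at -0.19 ± 0.14, Atp6ap2, the prorenin receptor gene, at 0.16 ± 0.29, and Agtrap, whose product promotes receptor internalisation, at 0.46 ± 0.30. Of 16 other calcium channel genes 9 were tested (median -0.12), with the L-type gene Cacna1c at -0.22 ± 0.15, Cacnb2 at -0.02 ± 0.13 and Cacna2d1 at -0.36 ± 0.13. Of 18 calcium pump and store genes 12 were tested (median 0.14), with Atp2b1 at -0.49 ± 0.14, Atp2a2 at -0.16 ± 0.13 and Stim1 at -0.0013 ± 0.16. Of 10 other genes tied to aldosteronism 8 were tested (median -0.12), with Gnaq at -0.09 ± 0.12 and Gnas at -0.19 ± 0.12. Of 16 channel partners and paralogs 8 were tested (median 0.04), with Clcn3 at 0.12 ± 0.14, Clcn5 at -0.04 ± 0.14 and Clcn4 at 0.11 ± 0.20. In zona fasciculata-like, chromaffin-like and unnamed cortical nuclei 0 genes of the 7 lists passed by edgeR, and 0 by DESeq2. At an unadjusted p under 0.05 there were 6 of 88, 9 of 94 and 4 of 87 tested, in that order, against 2.06%, 5.25% and 4.66% of all genes.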

How the data were processed

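The authors deposited raw UMI counts for each gene in each barcode. The submitters' processing notes name Cell Ranger, Seurat and the mm10 build. Per the file headers, Cell Ranger 4.0.0 counted KO replicate 1 and WT replicate 1 (32285 genes listed) and 3.1.0 the other libraries (31053), and this was the batch term. The sources used here do not state if intronic reads were included.

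Barcodes with under 300 genes or at least 5% mitochondrial UMIs (48 of 21724) and the highest scrublet scores at 0.8% per 1000 barcodes (641) were removed. The 30406 shared genes gave 2000 variable genes, without the 9 members, then 30 principal components, a Harmony correction for library written in numpy, 20 neighbours and Leiden clusters at resolution 0.8 (scanpy 1.11.5, Python 3.11.15). A cluster took the name of a list with 3 or more markers that reached a log2 fold of 1 and 10% of its nuclei.

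UMIs of each class were added up by library. Classes with at least 20 nuclei in each grouped library were tested with edgeR 4.0.16 (quasi-likelihood, TMM, filterByExpr, two-sided, R 4.3.3), and DESeq2 1.42.0 was an alternative. SE is the fold divided by the square root of its F statistic. The tests were tested on simulated data. The named genes were all 9 members, list genes that passed, the 3 most abundant of each list in zona glomerulosa-like nuclei, and the 3 genes most correlated with each member. One gene that this rule names is not reported here. Genes, clusters and libraries singled out beside these were chosen after their values were seen. The members and lists were chosen with earlier results of these data known. Replicate numbers follow the order of deposit. Shares were compared after thinning nuclei to 1000 UMIs. Alternatives were DESeq2, its size factors, no filter, kept doublets, at least 1000 genes, no batch term, the unassigned library in either group, other clusterings, 5 CPM as pseudocount and leaving out each library.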

Additional observations from a re-analysis of the deposited data

How the results depend on the processing

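The 5 grouped libraries limit every test, and KO replicate 2 is the shallowest. With the batch as a term, leaving out KO replicate 1, WT replicate 1 or KO replicate 2 leaves the fold to 1 batch, with 1 KO library. Such fits cannot decide whether a call is stable. No paired analysis was possible because the replicate numbers follow the order of deposit and appear in no label. The count of members called was 0 in zona glomerulosa-like, zona fasciculata-like and chromaffin-like nuclei and in all nuclei under every alternative run, apart from leaving out libraries in the zona glomerulosa-like class, where it was 0 to 1 (1 without WT replicate 2 or 3). DESeq2 gave no adjusted p to Kcnj5 in zona glomerulosa-like or to Agtr1b in chromaffin-like nuclei and could not call them. The count of all genes called was less stable. In the zona glomerulosa-like class 73 became 47 with DESeq2, 290 with no filter on low counts, 45 with doublets kept, 0 with no batch term, 0 or 3 with the unassigned library as KO or WT, 11 when joined with the unnamed cortical cluster (an alternative added after seeing the data), and 23 to 295 on leaving out 1 library. With DESeq2 and with no filter, 0 became 3 and 36 in zona fasciculata-like nuclei, 11 and 103 in chromaffin-like nuclei, and 56 and 386 in all nuclei. Leaving out 1 library gave 0 to 11, 0 to 104 and 7 to 286 in these. The difference between zones called 14 genes with no filter and 0 to 115 on leaving out 1 library. The count of members highest in zona glomerulosa-like nuclei was 5 to 6 on leaving out 1 library.

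Among log2 folds in zona glomerulosa-like nuclei, Agtr1a turned to -0.11 with the unassigned library as KO. Agtr1b turned to 0.25 there, to 0.016 with doublets kept, to 0.0081 with the members among the variable genes and to 0.094 when joined. Kcnk3 turned to -0.024 with no filter, Kcnk9 to -0.026 with no batch term, and Scarb1 to 0.93 with the unassigned library as KO. On leaving out 1 library, Agtr1a ranged from -0.28 to 0.54, Agtr1b from -0.36 to 0.25, Kcnk9 from -0.040 to 0.24 and Cacna1h from -0.076 to 0.87. The ends of these ranges lie close to the folds within the batches and are no separate check. Agtr1b in chromaffin-like nuclei turned to -0.13 with doublets kept. With 5 CPM added in place of 1, the log2 ratio of zona glomerulosa-like over zona fasciculata-like nuclei was 6.60 for Agtr1b and 0.64 for Kcnj5. Of the refitted folds, 17 turned sign, 2 passed only under the alternative, 23 no longer passed and 198 kept their direction and side of the threshold. The alternatives for list genes, for members outside the zona glomerulosa-like class and for single differences between zones were chosen after seeing the data, as were the clusterings for single folds. The count of members highest in the zona glomerulosa-like class was not recomputed with only the best-marked cluster, since that class is 1 cluster. The causes were not tested.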
